A study of Mus musculus with 15 samples.

Results

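The genes described here are 28 genes of cholesterol synthesis, sterol transport and the control of SREBP2 (sterol regulatory element-binding protein 2), followed in RAW264.7, an established mouse line of macrophage type. They were chosen by symbol, from a list of pathway members, among the 25639 genes of the deposited count table. All 28 passed the filter on low counts, as did 12401 genes in all. Not every enzyme or receptor of the pathway is among the 28. The study measured polyadenylated RNA in 15 libraries, 3 in each of 5 groups. Cells of wild-type genotype were left untreated, or received 1 µg or 10 µg of LCCL for 6 h or for 24 h. The series title describes LCCL as a peptide built on the core motif of the LCCL domain, a fold found in cochlin and other secreted proteins. The labels give its amount as a mass without a volume. No vehicle is named, nor when the untreated cells were harvested, so that time in culture and time with LCCL cannot be told apart in the comparisons with untreated cells. All libraries carry the same batch label and come from a single cell line, and nothing in the labels says that the 3 replicates of a group were separate cultures. The p-values therefore measure only how these libraries vary, and that variation may be technical.

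Cells build cholesterol from acetyl-CoA through mevalonate, isoprenoid diphosphates, squalene and lanosterol. The genes of this route are switched on by SREBP2, a transcription factor made as a membrane protein of the endoplasmic reticulum. When sterols are scarce, the escort protein SCAP carries SREBP2 to the Golgi in COPII vesicles, where the proteases encoded by Mbtps1 and Mbtps2 release its active part. When sterols are plentiful, the INSIG proteins hold SCAP and SREBP2 back. Macrophages also take up much cholesterol with the particles they engulf, and NPC1 and NPC2 move it out of lysosomes.

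The libraries held 19085148 to 22434642 counted reads, of which the 28 genes took 0.306% to 0.363% and genes of the mitochondrial genome 5.77% to 6.55%. The 1 µg 24 h libraries differed most among themselves. Their pairwise chi-square per degree of freedom ran from 5.71 to 15.2, against 2.55 to 7.13 in the other groups. All 10 macrophage markers checked had reads, although Mertk had only 20 reads over all libraries. Their summed level was 14923 to 15543 CPM (counts scaled to a common library size) in untreated cells and 11290 to 12376 CPM at 10 µg and 24 h, and its part in the results was not tested. Lyz2, at 7099 to 11045 CPM over all libraries, was the largest part of this sum, which does not show how each marker changed. Markers of the other cell types summed to at most 1.17 CPM per list and group. The exons of Fdps, Tm7sf2, Mbtps2 and Rnf139 overlap those of a same-strand gene, and those of Hmgcs1, Idi1, Fdft1, Lss, Cyp51, Scap, Rnf139 and Npc1 overlap those of an opposite-strand gene, so that some of their reads are of uncertain origin. In bulk RNA, fewer cells of a type and less RNA per cell cannot be told apart.

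Promoter sequences are shown first because SREBP2 acts through DNA beside these genes. In the RefSeq promoter table (build GRCm38.p6, 250 bases before to 50 bases after each start), 22 of the 28 genes had a window, 28 windows in all. Rnf139, Npc1, Fdft1, Fdps, Stard4 and Sqle had no entry. The 6 stretches below cover the 200 bases before the start, written 5′ to 3′ on the strand of the gene, and were chosen as examples of genes that rose early or moved in opposite directions later. Capitals mark CCAAT, a box bound by NF-Y, or TCACNCCAC, the core of the sterol regulatory element, each on either strand. The stretch of Insig1 holds neither, since its CCAAT begins 216 bases before the start. Hmgcs1 lies at chr13:119690151-119690350 (plus strand), Insig1 at chr5:28071212-28071411 (plus strand), Mvd at chr8:122443423-122443622 (minus strand), Idi1 at chr13:8885406-8885605 (plus strand), Hsd17b7 at chr1:169969206-169969405 (minus strand) and Npc2 at chr12:84773113-84773312 (minus strand).
Hmgcs1: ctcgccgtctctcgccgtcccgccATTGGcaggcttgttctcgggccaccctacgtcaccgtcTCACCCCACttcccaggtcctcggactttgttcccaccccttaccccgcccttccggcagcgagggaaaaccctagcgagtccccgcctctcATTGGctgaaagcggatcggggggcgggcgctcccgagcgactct
Insig1: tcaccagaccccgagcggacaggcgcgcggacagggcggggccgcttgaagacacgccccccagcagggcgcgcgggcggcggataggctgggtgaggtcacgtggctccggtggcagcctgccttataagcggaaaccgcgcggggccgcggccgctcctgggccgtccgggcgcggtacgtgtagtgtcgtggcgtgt
Mvd: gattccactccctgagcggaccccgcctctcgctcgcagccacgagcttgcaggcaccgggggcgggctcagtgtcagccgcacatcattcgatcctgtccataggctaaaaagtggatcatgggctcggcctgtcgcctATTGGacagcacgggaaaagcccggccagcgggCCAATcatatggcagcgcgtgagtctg
Idi1: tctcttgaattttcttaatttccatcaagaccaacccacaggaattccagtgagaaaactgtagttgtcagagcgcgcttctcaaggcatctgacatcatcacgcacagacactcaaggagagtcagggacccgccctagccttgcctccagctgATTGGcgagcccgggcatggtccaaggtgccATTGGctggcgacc
Hsd17b7: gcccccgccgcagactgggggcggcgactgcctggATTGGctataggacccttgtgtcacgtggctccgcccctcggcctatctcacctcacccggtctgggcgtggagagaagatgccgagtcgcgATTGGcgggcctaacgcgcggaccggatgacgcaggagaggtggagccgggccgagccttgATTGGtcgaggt
Npc2: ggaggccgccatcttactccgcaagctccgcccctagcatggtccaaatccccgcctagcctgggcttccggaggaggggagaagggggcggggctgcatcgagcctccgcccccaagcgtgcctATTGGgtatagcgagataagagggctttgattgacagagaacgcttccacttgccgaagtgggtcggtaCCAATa

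Searched on both strands, the full sterol regulatory element, which has 1 base more than its core, was in 0 of the 28 member windows and in 0.234% of all 32851 windows of that length. Its shorter core TCACNCCAC, which lies within it, was in 1 member window, that of Hmgcs1, beginning 137 bases before the start, and in 1.24% of all windows. CCAAT was in 18 of 28 member windows (64.3%) against 37.4% of all windows. GGGCGG, a GC box bound by SP1, was in 23 of 28 (82.1%) against 35.7%. Some genes have several windows, and by gene CCAAT was in 18 of 22 and GGGCGG in 20 of 22. The share of all genes, as against windows, is not given here. A match is a description of these letters and not a binding site, and an element outside the window is not seen.

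In untreated cells the 28 genes spanned a wide range of levels per length, here CPM per kilobase of exon (GENCODE exon models of build GRCm38, another build than the one used for counting). The length joins the exons of all annotated transcripts of a gene, 5438 bases for Npc2, whichever of them the cells make. A gene with long transcripts that are not made therefore reads too low, and the order of genes depends on the annotation. By this measure Idi1, the isomerase that makes the starter unit of isoprenoid chains, was highest at 61.3 ± 1.46 CPM per kb (SD, n = 3). Hmgcs1, which makes HMG-CoA, followed at 50.3 ± 1.06 CPM per kb, and their ranges did not overlap. Tm7sf2, a sterol reductase, was lowest at 1.92 ± 0.199 CPM per kb. The sterol sensor partner Insig1 stood at 44.1 ± 0.862 CPM per kb and Insig2 at 7.95 ± 0.203 CPM per kb. The plot of untreated levels per kilobase shows the whole order.

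**Figure D1:**
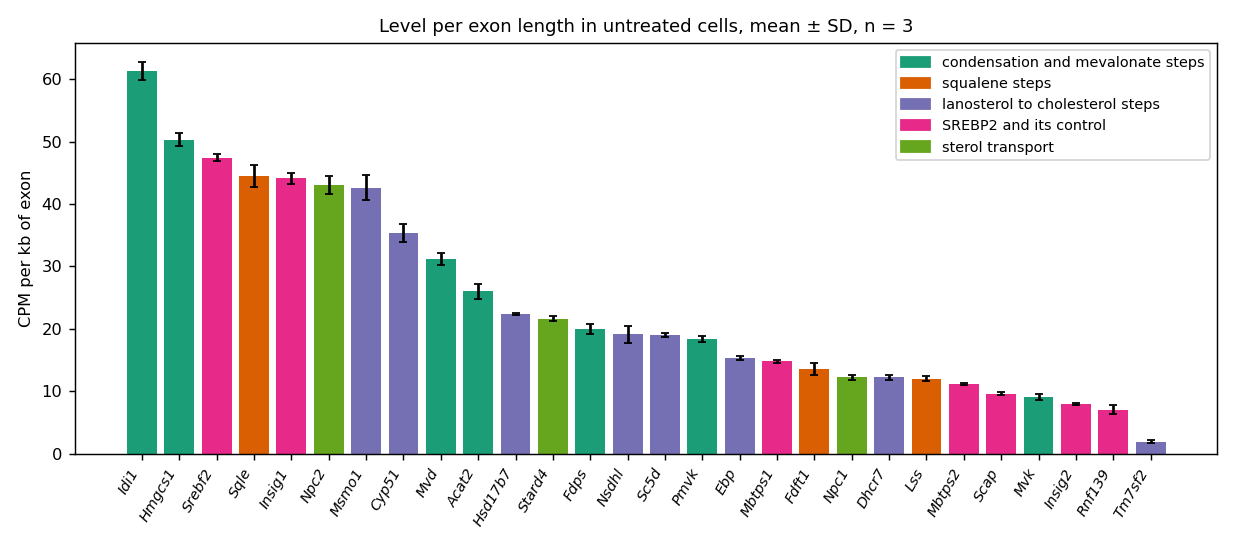
Level of each of the 28 genes in untreated cells, in CPM per kilobase of exon, with bars at the mean of 3 libraries, error bars at 1 SD and colours for the role of the gene. Exon length joins all annotated transcripts of a gene, so the order depends on the annotation. Idi1 stands highest, at 61.3 CPM per kb, and Tm7sf2 lowest, at 1.92 CPM per kb.

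Against untreated cells, 10 of the 28 genes rose at 6 h with 10 µg of LCCL, by 14.99% to 28.6%, among them Insig1, the mevalonate genes Hmgcs1, Mvd and Fdps, and the squalene and sterol genes Fdft1, Lss, Cyp51, Msmo1, Hsd17b7 and Sc5d. At 24 h the genes split: Hsd17b7, Idi1, Acat2, Sqle, Ebp, Hmgcs1, Msmo1, Scap and Stard4 fell at both amounts, while Insig2, Npc2, Mvd and Tm7sf2 rose at both. Changes are log2 fold changes ± SE from edgeR's quasi-likelihood test over all 15 libraries, called at an adjusted p under 0.05 (Benjamini-Hochberg over the 12401 genes). At 1 µg and 6 h, 0 of 28 genes were called, as were 0% of all genes. With an unadjusted p under 0.05 there were 0 of 28 and 337 of 12401, and DESeq2 called 0 of 28 and 0 of all genes. At 10 µg and 6 h, 10 genes rose and 0 fell. Of all genes, 5.95% were called (4.09% higher, 1.86% lower). The median change of the 28 was 0.12, beside -0.0022 over all genes. The 3 treated libraries did not overlap with the 3 untreated ones, in either direction, for 20 of the 28 genes, the 10 risers among them, and for 27.3% of all genes. Without untreated replicate 1 the count was 4, and it was also 4 without replicate 3 of the treated group. Calls over all genes also fell, from 738 to between 390 and 469, as each replicate was left out.

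At 24 h most of the 12401 genes tested were called, and the share called among the 28 was below that of all genes. At 1 µg, 5 of the 28 rose and 9 fell, and 61.8% of all genes were called (30.8% higher, 31% lower). At 10 µg, 6 rose and 11 fell, and 70.3% of all genes were called (35.4% higher, 34.9% lower). Treated and untreated libraries did not overlap for 14 of the 28 genes at 1 µg and 19 at 10 µg. Over all genes the shares were 64.7% and 72.2%. A lack of overlap at 24 h, given below for single genes, is therefore not particular to them. The median change of the 28 was -0.06 at 1 µg and -0.05 at 10 µg, beside 0.01 over all genes at each amount. When libraries were scaled by their totals alone, these medians became 0.05 and 0.04, while the median over all genes moved to 0.11 and 0.10. The calls then split into 9 higher and 7 lower at 1 µg and 7 higher and 10 lower at 10 µg. Calls over all genes under that scaling are not given here, so these splits are not read as particular to the 28. The 4 comparisons with untreated cells share the same 3 control libraries. In the plot of fold changes the early rises lie close to 0 and the later changes spread to both sides.

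**Figure D2:**
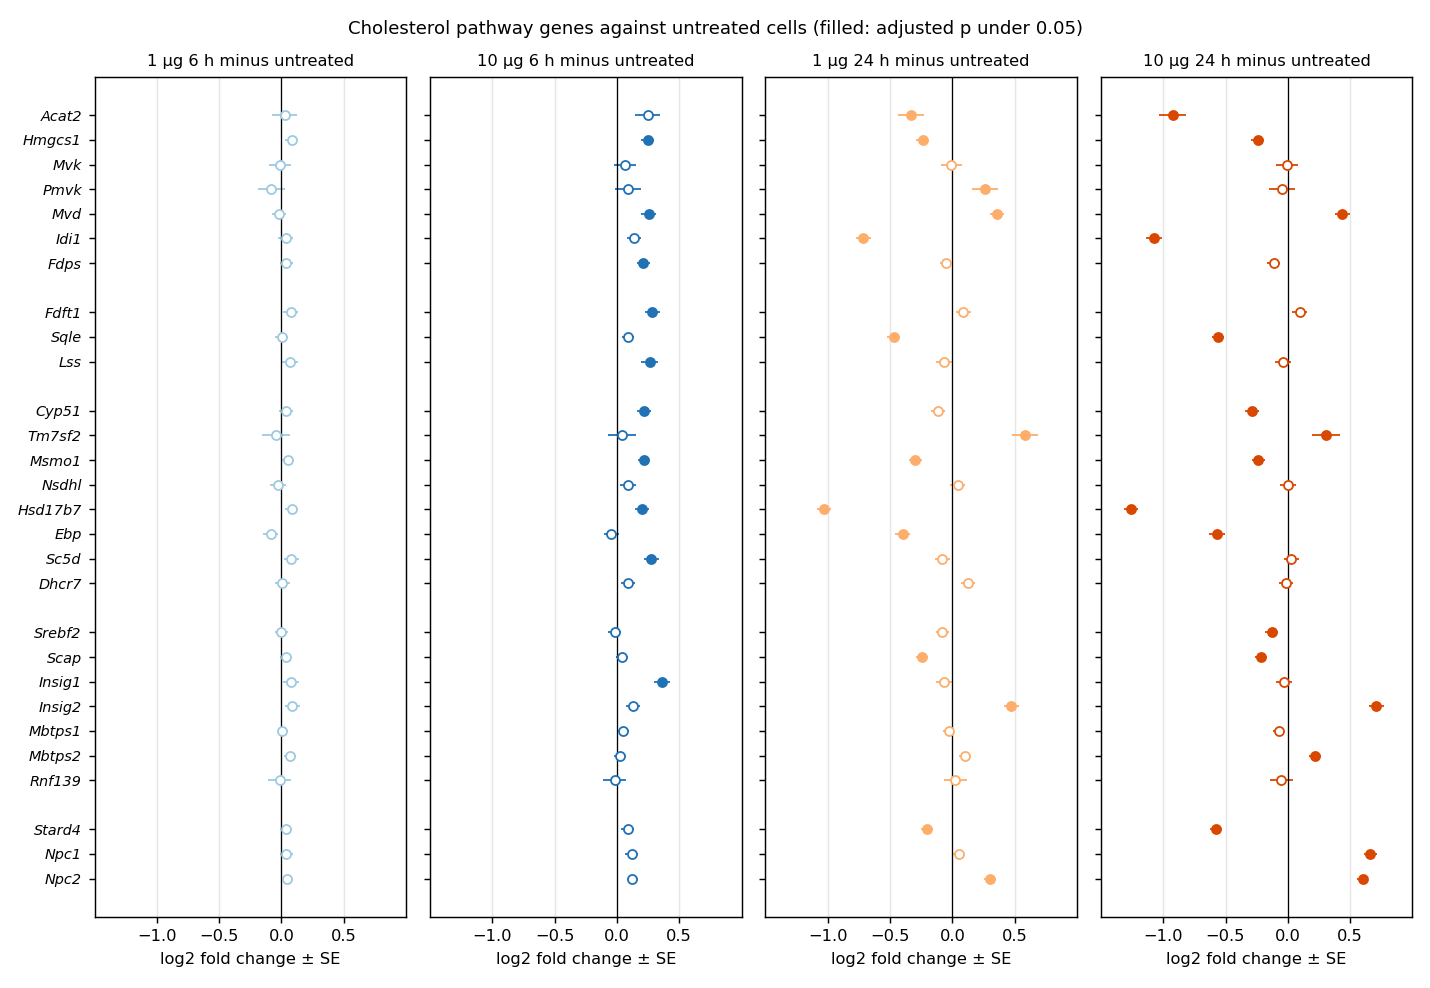
Log2 fold change ± SE of each gene against untreated cells in the 4 treated groups, with filled points for an adjusted p under 0.05 and genes grouped by role from the condensation and mevalonate steps (top) to sterol transport (bottom). At 10 µg and 6 h the 10 filled points lie between 0.20 and 0.36, and at 10 µg and 24 h they run from -1.26 to 0.71.

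The condensation and mevalonate steps, from acetyl-CoA to farnesyl diphosphate, are covered by 7 genes. At 10 µg and 6 h 3 of them rose, at 24 h 2 rose and 3 fell with 1 µg, and 1 rose and 3 fell with 10 µg. In the same comparisons 5.95%, 61.8% and 70.3% of all genes were called. Hmgcs1 had 226, 231 and 236 CPM in untreated cells, 237, 238 and 258 CPM at 1 µg and 6 h, and 277, 263 and 282 CPM at 10 µg and 6 h. The 24 h libraries held 192, 205 and 189.8 CPM at 1 µg and 183, 207 and 196 CPM at 10 µg. All 10 µg 6 h libraries lay above the untreated ones and all 24 h libraries below them. Hmgcs1 rose at 10 µg and 6 h by 0.25 ± 0.05 (adjusted p = 0.00335) and fell at 24 h, with log2 changes of -0.24 ± 0.05 (adjusted p = 0.000297) at 1 µg and -0.24 ± 0.05 (adjusted p = 0.000202) at 10 µg.

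Idi1 had the second largest decrease of the 28 genes at 24 h. It had 209, 218 and 218 CPM in untreated cells, 224, 215 and 219.7 CPM at 1 µg and 6 h, and 242, 229.8 and 237 CPM at 10 µg and 6 h. Its levels at 24 h were 129.6, 147 and 115 CPM at 1 µg and 98.5, 104 and 103 CPM at 10 µg, with no overlap with any untreated or 6 h library. The log2 changes against untreated cells were -0.72 ± 0.06 (adjusted p = 2.49e-10) and -1.07 ± 0.06 (adjusted p = 6.09e-14). The change at 10 µg and 6 h was 0.14 ± 0.06 (adjusted p = 0.206), and it passed under 1 of 12 alternatives (lowest adjusted p 0.0117).

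Acat2, the cytosolic thiolase that joins acetyl-CoA units, had 65.6, 63.3 and 69.4 CPM in untreated cells, 69.2, 63.4 and 69.4 CPM at 1 µg and 6 h, and 76.8, 79.5 and 79.2 CPM at 10 µg and 6 h. At 24 h it had 60.4, 56.3 and 40.4 CPM at 1 µg and 36.6, 33.9 and 33.9 CPM at 10 µg, and replicate 3 of the 1 µg group was the lowest of its group. It fell at both amounts, by log2 changes of -0.33 ± 0.10 (adjusted p = 0.0102) at 1 µg and -0.92 ± 0.11 (adjusted p = 1.07e-06) at 10 µg. The call at 1 µg ended, with an adjusted p of 0.0597 with scaling by library totals alone and 0.0759 when only the groups compared were fitted (range over all alternatives 0.000495 to 0.0759). Its change at 10 µg and 6 h, 0.25 ± 0.10 (adjusted p = 0.189), did not pass. That change passed under 1 of 12 alternatives (lowest adjusted p 0.000505).

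Mvd, the decarboxylase that makes isopentenyl diphosphate, was the only gene of the 28 called higher against untreated cells at 10 µg at both times. It had 55.9, 58.5 and 59.2 CPM in untreated cells, 58.7, 53.8 and 58.9 CPM at 1 µg and 6 h, and 65.9, 66.9 and 74.5 CPM at 10 µg and 6 h. The 24 h libraries held 78.5, 75.1 and 69.0 CPM at 1 µg and 76.3, 78.5 and 80.3 CPM at 10 µg, all above the untreated libraries. Its log2 changes were 0.25 ± 0.06 (adjusted p = 0.00862) at 10 µg and 6 h, 0.36 ± 0.06 (adjusted p = 8.85e-06) at 1 µg and 24 h and 0.44 ± 0.06 (adjusted p = 2.95e-07) at 10 µg and 24 h. The early call ended, with an adjusted p of 0.0588 leaving out untreated replicate 1 and 0.0821 leaving out 10 µg 6 h replicate 3 (range over all alternatives 0.00112 to 0.0821).

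Fdps, which makes farnesyl diphosphate, had 81.0, 83.0 and 88.0 CPM in untreated cells, 85.1, 85.1 and 88.8 CPM at 1 µg and 6 h, and 92.8, 94.5 and 105 CPM at 10 µg and 6 h. Its levels at 24 h were 83.1, 82.9 and 77.6 CPM at 1 µg and 79.2, 77.1 and 76.8 CPM at 10 µg. The 10 µg 6 h libraries were the highest. It rose there by 0.21 ± 0.05 (adjusted p = 0.0132), and at 24 h the changes were -0.05 ± 0.05 (adjusted p = 0.438) and -0.11 ± 0.05 (adjusted p = 0.0603). The early call ended, with an adjusted p of 0.0841 leaving out untreated replicate 1, 0.0542 leaving out untreated replicate 2 and 0.122 leaving out 10 µg 6 h replicate 3 (range over all alternatives 0.00359 to 0.122). Of the kinases of this stretch, Mvk was called in none of the 9 comparisons, and Pmvk rose at 1 µg and 24 h by 0.26 ± 0.10 (adjusted p = 0.0342), with libraries that spread widely there, at 37.5 ± 8.12 CPM (SD, n = 3). That call of Pmvk ended, with an adjusted p of 0.139 when only the groups compared were fitted, 0.0623 leaving out untreated replicate 1, 0.0633 leaving out untreated replicate 2, 0.0928 leaving out untreated replicate 3, 0.27 leaving out 1 µg 24 h replicate 1 and 0.0897 leaving out 1 µg 24 h replicate 2 (range over all alternatives 2.78e-05 to 0.27).

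Among the squalene steps, 2 of 3 genes rose at 10 µg and 6 h, and 1 fell at 24 h with each amount. Calls over all genes were 5.95% at 10 µg and 6 h, and 61.8% (1 µg) and 70.3% (10 µg) at 24 h. Fdft1, squalene synthase, rose early by 0.28 ± 0.06 (adjusted p = 0.00411), a call kept under every alternative, and was at 0.09 ± 0.06 (adjusted p = 0.203) and 0.09 ± 0.06 (adjusted p = 0.167) at 24 h. Its exons overlap those of Ctsb on the opposite strand over 18.3% of their length, and the strand setting of the counting is not given in the sources used here, so reads of the pair cannot be told apart where they overlap. Lss, lanosterol synthase, rose early by 0.26 ± 0.07 (adjusted p = 0.0189). The call of Lss ended, with an adjusted p of 0.0987 leaving out untreated replicate 1, 0.0517 leaving out untreated replicate 3, 0.0513 leaving out 10 µg 6 h replicate 1 and 0.0975 leaving out 10 µg 6 h replicate 3 (range over all alternatives 5.37e-05 to 0.0987).

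Sqle, squalene epoxidase, a rate-controlling enzyme of the later pathway, did not pass at 6 h. It had 243, 239.9 and 258 CPM in untreated cells, 248, 247 and 247 CPM at 1 µg and 6 h, and 259.6, 259.8 and 268 CPM at 10 µg and 6 h. At 24 h it had 167, 195 and 173 CPM at 1 µg and 168, 168 and 166 CPM at 10 µg. All of these were below every untreated and 6 h library. The log2 changes were -0.47 ± 0.05 (adjusted p = 1.50e-08) at 1 µg and -0.56 ± 0.05 (adjusted p = 3.37e-10) at 10 µg, and 0.09 ± 0.05 (adjusted p = 0.376) at 10 µg and 6 h.

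Of the 8 genes of the steps from lanosterol to cholesterol, 4 rose at 10 µg and 6 h. At 24 h 1 rose and 3 fell with 1 µg, and 1 rose and 4 fell with 10 µg. Shares of all genes called in these comparisons were 5.95%, 61.8% and 70.3%. Hsd17b7, the ketoreductase of sterol demethylation, had the largest decrease of the 28 genes at 24 h. It had 113, 115 and 115 CPM in untreated cells, 121, 118 and 123 CPM at 1 µg and 6 h, and 135, 126 and 133 CPM at 10 µg and 6 h. The 24 h libraries held 57.0, 60.2 and 50.5 CPM at 1 µg and 48.7, 49.0 and 45.5 CPM at 10 µg, so that every 24 h library was below every other library. The log2 changes were -1.03 ± 0.06 (adjusted p = 6.87e-14) and -1.26 ± 0.06 (adjusted p = 5.08e-16). At 10 µg and 6 h it rose by 0.20 ± 0.05 (adjusted p = 0.0209), a call that ended, with an adjusted p of 0.0868 leaving out untreated replicate 1, 0.0584 leaving out untreated replicate 2, 0.068 leaving out untreated replicate 3, 0.0984 leaving out 10 µg 6 h replicate 1 and 0.0845 leaving out 10 µg 6 h replicate 3 (range over all alternatives 0.000902 to 0.0984).

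Ebp, a sterol isomerase, had 34.7, 35.4 and 36.0 CPM in untreated cells, 32.6, 34.1 and 33.3 CPM at 1 µg and 6 h, and 33.7, 33.7 and 35.3 CPM at 10 µg and 6 h. Its levels at 24 h were 27.0, 27.2 and 26.3 CPM at 1 µg and 25.2, 22.5 and 23.7 CPM at 10 µg. Both 24 h groups lay below the untreated libraries, with log2 changes of -0.40 ± 0.06 (adjusted p = 3.49e-06) and -0.57 ± 0.06 (adjusted p = 8.04e-09). Its changes at 6 h were -0.08 ± 0.06 (adjusted p = 1) at 1 µg and -0.05 ± 0.06 (adjusted p = 0.748) at 10 µg.

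Msmo1, the oxidase that removes methyl groups from sterols, had 254, 256 and 276 CPM in untreated cells, 274, 258 and 281 CPM at 1 µg and 6 h, and 305, 296 and 313 CPM at 10 µg and 6 h. At 24 h it had 209, 224 and 206 CPM at 1 µg and 216, 233 and 218 CPM at 10 µg. Like Hmgcs1, it was highest at 10 µg and 6 h and lowest at 24 h, and the 24 h libraries did not overlap with the untreated ones. Msmo1 rose early by 0.22 ± 0.05 (adjusted p = 0.00876) and fell at 24 h by log2 changes of -0.30 ± 0.05 (adjusted p = 1.61e-05) and -0.24 ± 0.05 (adjusted p = 0.000186). The early call ended, with an adjusted p of 0.066 leaving out untreated replicate 1, 0.0511 leaving out untreated replicate 2 and 0.0554 leaving out 10 µg 6 h replicate 3 (range over all alternatives 0.000199 to 0.066).

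Cyp51, lanosterol demethylase, had 149, 161 and 159 CPM in untreated cells, 161, 156 and 164 CPM at 1 µg and 6 h, and 178, 179.5 and 188 CPM at 10 µg and 6 h. The 24 h libraries held 155, 151 and 127 CPM at 1 µg and 131, 125 and 128 CPM at 10 µg. It rose at 10 µg and 6 h by 0.22 ± 0.06 (adjusted p = 0.0209) and fell at 10 µg and 24 h, with a log2 change of -0.29 ± 0.06 (adjusted p = 8.88e-05). The change at 1 µg and 24 h was -0.11 ± 0.06 (adjusted p = 0.0889). The early call ended, with an adjusted p of 0.131 leaving out untreated replicate 1, 0.0586 leaving out untreated replicate 3, 0.0638 leaving out 10 µg 6 h replicate 2 and 0.107 leaving out 10 µg 6 h replicate 3 (range over all alternatives 0.00032 to 0.131).

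The other genes of this stretch varied. Sc5d, a sterol desaturase, rose early by 0.28 ± 0.06 (adjusted p = 0.00568), a call kept under every alternative, and did not pass at 24 h. Tm7sf2 rose at 24 h by 0.58 ± 0.11 (adjusted p = 4.21e-05) at 1 µg and 0.31 ± 0.11 (adjusted p = 0.0149) at 10 µg. The second of these calls ended, with an adjusted p of 0.0937 leaving out untreated replicate 2 (range over all alternatives 0.00249 to 0.0937). Nsdhl and Dhcr7, enzymes of sterol demethylation and of the last reduction, were called in none of the 9 comparisons. Dhcr7 came near the threshold for the interaction of amount and time (adjusted p = 0.0511), described below. It gained that call under 6 of 18 alternatives (lowest adjusted p 0.0173). For 10 µg against 1 µg at 24 h it gained a call under 5 of 12 (lowest adjusted p 0.017).

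The control of SREBP2 is covered by 7 genes. At 10 µg and 6 h 1 of them rose, at 1 µg and 24 h 1 rose and 1 fell, and at 10 µg and 24 h 2 rose and 2 fell. Beside these stand 5.95%, 61.8% and 70.3% of all genes called. Srebf2, which encodes SREBP2, had 342, 336 and 344 CPM in untreated cells, 350.0, 335 and 335 CPM at 1 µg and 6 h, and 327, 336 and 345 CPM at 10 µg and 6 h. Its levels at 24 h were 303, 345 and 317 CPM at 1 µg and 304, 297 and 333 CPM at 10 µg. The changes were -0.02 ± 0.05 (adjusted p = 0.896) at 10 µg and 6 h, -0.08 ± 0.05 (adjusted p = 0.169) at 1 µg and 24 h and -0.13 ± 0.05 (adjusted p = 0.0292) at 10 µg and 24 h. The last call ended, with an adjusted p of 0.459 with scaling by library totals alone, 0.0599 leaving out untreated replicate 1, 0.0697 leaving out untreated replicate 3, 0.091 leaving out 10 µg 24 h replicate 1 and 0.129 leaving out 10 µg 24 h replicate 2 (range over all alternatives 0.0053 to 0.459).

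Insig1, itself a target of SREBP2 that holds SCAP in the endoplasmic reticulum, had the largest early rise of the 28 genes. It had 134, 137 and 139 CPM in untreated cells, 144, 141 and 146 CPM at 1 µg and 6 h, and 167, 176 and 183 CPM at 10 µg and 6 h. At 24 h it had 148, 128 and 114 CPM at 1 µg and 136, 130.3 and 134 CPM at 10 µg. The 10 µg 6 h libraries lay above all others, and at 24 h the 10 µg libraries lay near the untreated ones. Insig1 rose at 10 µg and 6 h by 0.36 ± 0.06 (adjusted p = 0.000728), a call kept under every alternative. At 24 h the changes were -0.07 ± 0.06 (adjusted p = 0.346) and -0.03 ± 0.06 (adjusted p = 0.679).

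Insig2, the second retention protein, was called at 24 h and not at 6 h. It had 28.2, 27.8 and 26.8 CPM in untreated cells, 29.0, 29.1 and 29.8 CPM at 1 µg and 6 h, and 30.8, 30.6 and 29.2 CPM at 10 µg and 6 h. The 24 h libraries held 38.1, 37.5 and 39.5 CPM at 1 µg and 44.0, 46.4 and 45.3 CPM at 10 µg. All of these were above every untreated and 6 h library. Insig2 rose by 0.47 ± 0.06 (adjusted p = 1.14e-07) at 1 µg and by 0.71 ± 0.06 (adjusted p = 3.61e-11) at 10 µg, and its change at 10 µg and 6 h was 0.13 ± 0.06 (adjusted p = 0.235).

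Scap, the escort protein, had 71.5, 69.7 and 72.9 CPM in untreated cells, 72.8, 71.5 and 74.8 CPM at 1 µg and 6 h, and 73.3, 73.1 and 73.8 CPM at 10 µg and 6 h. Its levels at 24 h were 60.3, 60.9 and 59.6 CPM at 1 µg and 58.6, 63.0 and 62.3 CPM at 10 µg. It fell at 24 h at both amounts, with log2 changes of -0.24 ± 0.05 (adjusted p = 9.55e-05) and -0.22 ± 0.05 (adjusted p = 0.000238), and the libraries did not overlap with the untreated ones. Of the Golgi proteases, Mbtps1 was not called against untreated cells, and Mbtps2 rose at 10 µg and 24 h by 0.22 ± 0.05 (adjusted p = 0.000342). Mbtps2 shares exon sequence on the same strand with Yy2, whose counts were 97 to 138 in untreated cells and 0 in all libraries at 10 µg and 24 h. With the counts of both genes added, the log2 ratio of group means was 0.15 instead of 0.22, and how the counting divided shared reads is not given in the sources used here. Rnf139, a ubiquitin ligase that acts on sterol regulators, was called in none of the 9 comparisons.

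Of the 3 genes of sterol transport, 0 were called at 6 h. At 1 µg and 24 h 1 rose and 1 fell, and at 10 µg and 24 h 2 rose and 1 fell. Over all genes 5.95% were called at 10 µg and 6 h, and 61.8% (1 µg) and 70.3% (10 µg) at 24 h. Npc2, the soluble cholesterol carrier of the lysosome, had 241, 226 and 235 CPM in untreated cells, 238, 237 and 250.003 CPM at 1 µg and 6 h, and 247, 253 and 266 CPM at 10 µg and 6 h. At 24 h it had 283, 282 and 300.4 CPM at 1 µg and 344, 353 and 368 CPM at 10 µg. Each group at 24 h lay above the untreated and 6 h groups, and 10 µg lay above 1 µg. Npc2 rose by 0.30 ± 0.05 (adjusted p = 5.28e-06) at 1 µg and by 0.60 ± 0.05 (adjusted p = 2.32e-11) at 10 µg. Its change at 10 µg and 6 h, not called, passed under 1 of 12 alternatives (lowest adjusted p 0.029).

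Npc1, the membrane protein that exports lysosomal cholesterol, was called only at 10 µg and 24 h among the 4 comparisons with untreated cells. It had 134, 138 and 143 CPM in untreated cells, 139.7, 144 and 143 CPM at 1 µg and 6 h, and 156, 149 and 145 CPM at 10 µg and 6 h. The 24 h libraries held 137, 142 and 151 CPM at 1 µg and 200.2, 223 and 233 CPM at 10 µg. The 3 libraries at 10 µg and 24 h stood apart from the 12 others. The change was 0.66 ± 0.05 (adjusted p = 3.80e-11) at 10 µg and 24 h and 0.05 ± 0.05 (adjusted p = 0.424) at 1 µg and 24 h.

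Stard4, which carries cholesterol between membranes in the cytosol and is a target of SREBP2, fell at 24 h at both amounts. It had 118, 122 and 121 CPM in untreated cells, 121, 126 and 124 CPM at 1 µg and 6 h, and 131, 124 and 128 CPM at 10 µg and 6 h. Its levels at 24 h were 110.2, 105 and 99.3 CPM at 1 µg and 81.7, 75.8 and 84.8 CPM at 10 µg. The log2 changes were -0.20 ± 0.05 (adjusted p = 0.00107) at 1 µg and -0.58 ± 0.05 (adjusted p = 1.63e-10) at 10 µg. The call at 1 µg ended, with an adjusted p of 0.0781 with scaling by library totals alone (range over all alternatives 0.000208 to 0.0781). The plot of levels by library shows these patterns for the genes with the clearest contrasts.

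**Figure D3:**
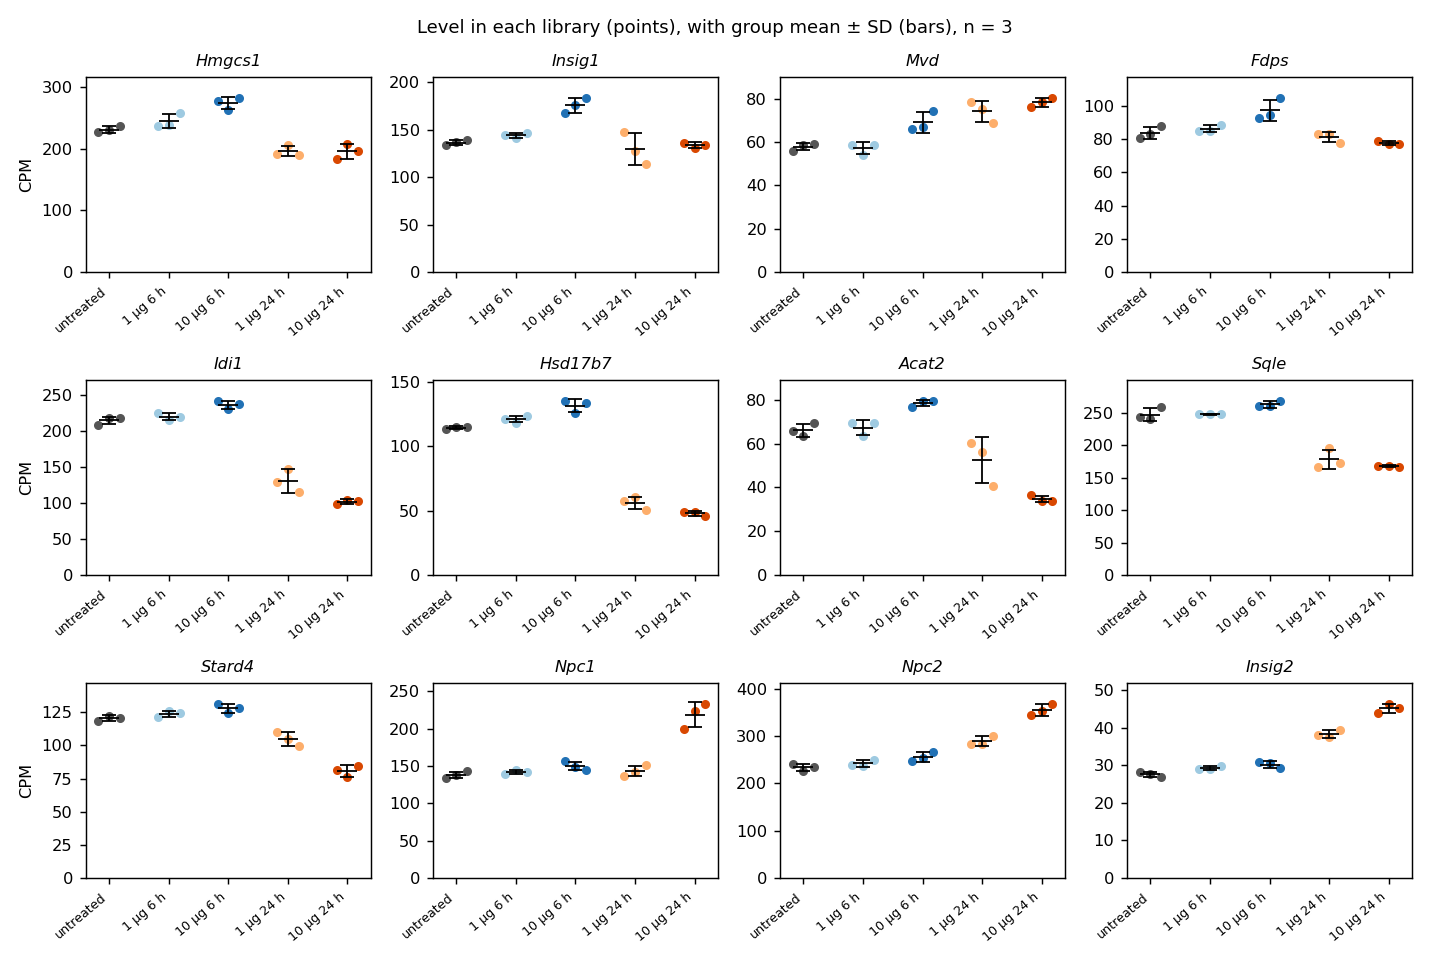
CPM of selected genes in each of the 15 libraries (points), with the mean of 3 libraries and 1 SD as bars, by group; each vertical axis starts at 0. Insig1 is highest at 10 µg and 6 h, Hsd17b7 and Idi1 are lowest at 24 h, and Npc1 stands apart at 10 µg and 24 h.

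The amount of LCCL was compared at each time. At 6 h, 10 µg against 1 µg, 2 of the 28 genes were higher and 0 lower, and 2.35% of all genes were called (1.85% higher, 0.492% lower). The count was 12 of 28 when only these groups were fitted (1044 of all genes instead of 291). It was 4 of 28 without a filter on low counts, where the count over all genes is not given here. With all groups fitted the called genes were Insig1, at 0.29 ± 0.06 (adjusted p = 0.0129), and Mvd, at 0.27 ± 0.06 (adjusted p = 0.00999). The call of Insig1 ended, with an adjusted p of 0.0729 leaving out 1 µg 6 h replicate 1, 0.0812 leaving out 1 µg 6 h replicate 2, 0.0637 leaving out 10 µg 6 h replicate 2 and 0.0999 leaving out 10 µg 6 h replicate 3 (range over all alternatives 3.67e-06 to 0.0999), and that of Mvd, with 0.0984 leaving out 1 µg 6 h replicate 2 and 0.115 leaving out 10 µg 6 h replicate 3 (range over all alternatives 0.000703 to 0.115). The median of the 28 was 0.09, beside 0.00 over all genes, and 25 of the 28 lay above 0. The count was 0 without 1 µg 6 h replicate 2 or without 10 µg 6 h replicate 3. It was 1 without 1 µg 6 h replicate 1 or without 10 µg 6 h replicate 2. Calls over all genes also fell, from 291 to between 111 and 163, as each replicate was left out.

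At 24 h, 10 µg against 1 µg, 3 of the 28 were higher and 8 lower, and 35.3% of all genes were called (16% higher, 19.3% lower). In all 7 of the 28 were called without replicate 2 of either group. Leaving out each replicate in turn gave 3581 to 4458 of all genes. Npc1 was higher by 0.61 ± 0.05 (adjusted p = 2.08e-09), Npc2 by 0.30 ± 0.05 (adjusted p = 1.68e-05) and Insig2 by 0.24 ± 0.06 (adjusted p = 0.00145). The lower genes were led by Acat2, at -0.59 ± 0.11 (adjusted p = 0.00042), Stard4, at -0.38 ± 0.05 (adjusted p = 1.85e-06), and Idi1, at -0.36 ± 0.06 (adjusted p = 5.12e-05). The others were Pmvk, Tm7sf2, Hsd17b7, Cyp51 and Ebp, with log2 differences from -0.31 to -0.17, and of these Tm7sf2, Ebp, Pmvk and Cyp51 were not called under every alternative. Sqle and Hmgcs1, which fell at both amounts, had differences between amounts of -0.09 ± 0.05 (adjusted p = 0.184) and -0.0026 ± 0.05 (adjusted p = 0.977).

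Within an amount, 24 h was set against 6 h, a comparison that does not use the untreated cells but in which time in culture differs along with time with LCCL. At 1 µg, 5 of the 28 genes were higher and 12 lower at 24 h, with 60.7% of all genes called (30.3% higher, 30.5% lower). At 10 µg, 6 were higher and 16 lower, with 69.2% of all genes called (34% higher, 35.2% lower). The 24 h and 6 h libraries did not overlap for 15 of the 28 genes at 1 µg and 23 at 10 µg. Over all genes this held for 65.5% and 72.1%. Mvd, Tm7sf2, Insig2 and Npc2 were higher at both amounts, but the call of Tm7sf2 at 10 µg ended, with an adjusted p of 0.0669 without a filter on low counts, 0.0624 leaving out 10 µg 6 h replicate 1, 0.154 leaving out 10 µg 6 h replicate 3, 0.091 leaving out 10 µg 24 h replicate 1 and 0.0797 leaving out 10 µg 24 h replicate 3 (range over all alternatives 0.00469 to 0.154). All 12 genes lower at 1 µg were also lower at 10 µg, where they made up 75% of the 16. Of the calls at 1 µg, that of Insig1 ended, with an adjusted p of 0.0516 with RLE size factors, 0.575 with scaling by library totals alone, 0.0561 with the replicate block, 0.0556 by DESeq2, 0.165 when only the groups compared were fitted, 0.0929 leaving out 1 µg 6 h replicate 1, 0.0588 leaving out 1 µg 6 h replicate 2, 0.104 leaving out 1 µg 6 h replicate 3, 0.103 leaving out 1 µg 24 h replicate 2 and 0.354 leaving out 1 µg 24 h replicate 3 (range over all alternatives 0.000133 to 0.575). The call of Cyp51 ended, with 0.497 with scaling by library totals alone, 0.094 when only the groups compared were fitted, 0.0671 leaving out 1 µg 6 h replicate 1, 0.076 leaving out 1 µg 6 h replicate 3 and 0.27 leaving out 1 µg 24 h replicate 3 (range over all alternatives 0.00265 to 0.497). The call of Sc5d ended, with 0.41 with scaling by library totals alone, 0.0899 when only the groups compared were fitted, 0.0592 leaving out 1 µg 6 h replicate 2, 0.0779 leaving out 1 µg 6 h replicate 3 and 0.247 leaving out 1 µg 24 h replicate 3 (range over all alternatives 0.00189 to 0.41), and that of Acat2, with 0.0723 when only the groups compared were fitted (range over all alternatives 0.000298 to 0.0723). The median of the 28 was -0.08 at 1 µg and -0.22 at 10 µg, beside 0.01 over all genes in each. Scaled by library totals alone, these medians became 0.02 and -0.12, with 0.12 and 0.11 over all genes. The calls then split into 8 higher and 9 lower at 1 µg and 6 higher and 14 lower at 10 µg. The split over all genes under that scaling is not given here, so these counts are not read as particular to the 28. The largest falls at 10 µg were those of Hsd17b7, at -1.46 ± 0.06 (adjusted p = 4.28e-17), Idi1, at -1.21 ± 0.06 (adjusted p = 8.42e-15), and Acat2, at -1.17 ± 0.10 (adjusted p = 6.28e-08). All 3 squalene genes fell there, including Fdft1, at -0.19 ± 0.06 (adjusted p = 0.00715), a call that ended, with an adjusted p of 0.212 with scaling by library totals alone (range over all alternatives 0.00349 to 0.212).

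Whether the effect of the amount differed between times was tested as an interaction, the 10 µg minus 1 µg difference at 24 h less that at 6 h. It was called lower for 7 of the 28 genes and higher for 2, with 18.6% of all genes called (11% lower, 7.58% higher). The largest was that of Acat2, at -0.81 ± 0.15 (adjusted p = 0.00124): 10 µg gave a difference of 0.22 ± 0.10 at 6 h and -0.59 ± 0.11 at 24 h. Npc1 had the largest positive value, at 0.53 ± 0.08 (adjusted p = 2.33e-05). Idi1 (-0.46 ± 0.09, adjusted p = 0.000435), Stard4 (-0.43 ± 0.07, adjusted p = 0.000144), Cyp51 (-0.36 ± 0.08, adjusted p = 0.00276) and Hsd17b7 (-0.35 ± 0.08, adjusted p = 0.00251) were lower under every alternative. Pmvk, Fdps and Npc2 were also called, but not under every alternative. Insig1 and Insig2 did not pass, at -0.25 ± 0.09 (adjusted p = 0.056) and 0.20 ± 0.08 (adjusted p = 0.0996). Insig1 passed under 3 of 18 alternatives (lowest adjusted p 0.00212) and Insig2 under 0. The plot of the amount effect at each time shows the pairs of values.

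**Figure D4:**
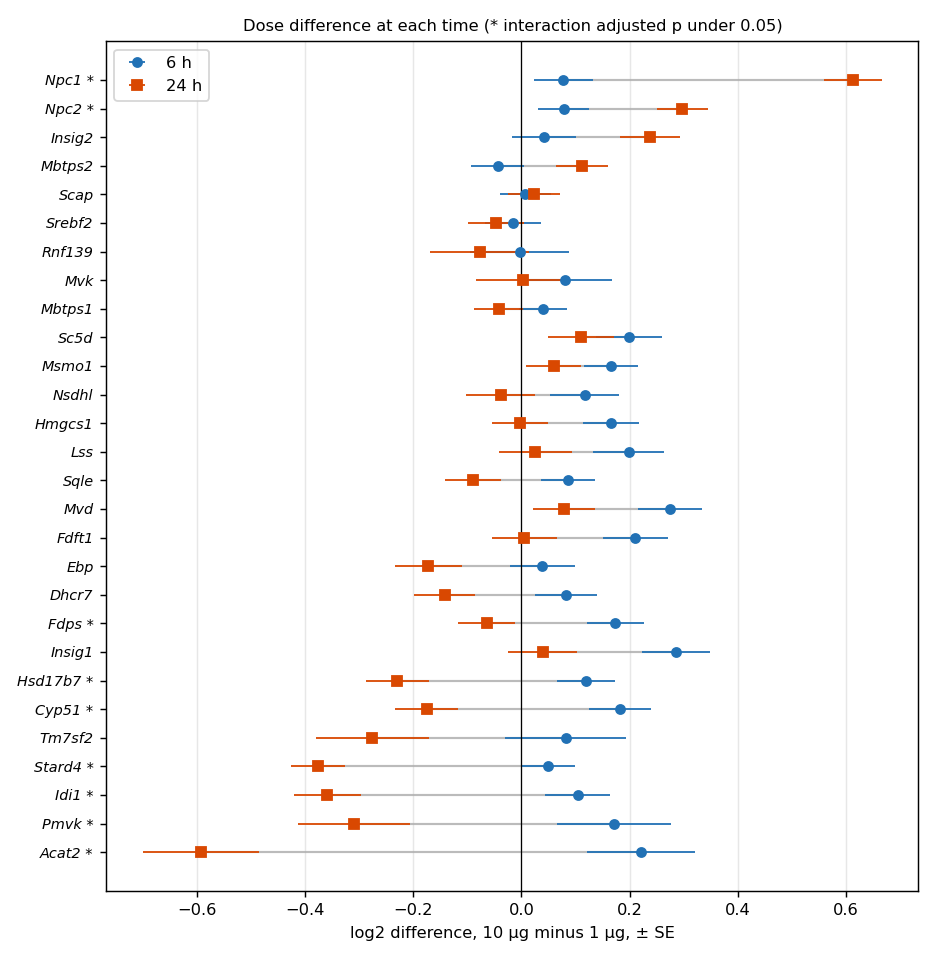
Log2 difference ± SE between 10 µg and 1 µg for each of the 28 genes, with circles at 6 h and squares at 24 h, and an asterisk for genes whose interaction had an adjusted p under 0.05. Acat2 runs from 0.22 at 6 h to -0.59 at 24 h, and Npc1 from 0.08 to 0.61.

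Genes around the pathway were followed in lists of their own. A list of liver X receptor (LXR), oxysterol synthesis and efflux genes, not all of them exporters, had 7 tested. Of these, 1 rose at 10 µg and 6 h. At 1 µg and 24 h 5 rose and 1 fell, and at 10 µg and 24 h 6 rose and 1 fell. Of all genes, 4.09% were higher at 10 µg and 6 h, 30.8% higher and 31% lower at 1 µg and 24 h, and 35.4% higher and 34.9% lower at 10 µg and 24 h. Abca1, a cholesterol exporter, rose at 24 h by 3.29 ± 0.10 (adjusted p = 1.91e-18) and 3.88 ± 0.10 (adjusted p = 4.44e-20). Abcg1, a second exporter, rose by 0.41 ± 0.06 (adjusted p = 0.000152) at 10 µg and 6 h, and by 2.18 ± 0.06 (adjusted p = 2.23e-19) and 2.40 ± 0.06 (adjusted p = 2.11e-20) at 24 h. Ch25h, which makes an oxysterol, had 0 or 1 read per group and was not tested. The median of the 7 tested genes of this list was 0.61 and 0.68 at 24 h, beside 0.01 over all genes.

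COPII coat genes, whose products carry SCAP and SREBP from the endoplasmic reticulum, fell at 24 h for 9 of 10 genes at 1 µg and 8 of 10 at 10 µg, with 1 rise at 10 µg and 6 h. Of all genes, 31% and 34.9% were lower at 24 h and 4.09% higher at 10 µg and 6 h. Sar1a, the GTPase that starts the coat, had -0.35 ± 0.05 (adjusted p = 2.98e-07) and -0.39 ± 0.05 (adjusted p = 4.50e-08) at 24 h, and Sec23b, a coat subunit, had -0.27 ± 0.06 (adjusted p = 0.0002) and -0.35 ± 0.06 (adjusted p = 5.64e-06). The median of the 10 was -0.22 and -0.20. Genes of sterol-regulated degradation fell for 5 of 9 at 1 µg and 4 of 9 at 10 µg, with 0 rises at 24 h, where 31% and 34.9% of all genes were lower and 30.8% and 35.4% higher. Of these, Vcp, the segregase that pulls proteins from membranes, had -0.80 ± 0.05 (adjusted p = 2.41e-12) and -0.92 ± 0.05 (adjusted p = 5.63e-14).

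The SREBP1 and fatty acid list had 9 tested genes, of which 1 rose at 10 µg and 6 h, 5 rose and 3 fell at 1 µg and 24 h, and 4 rose and 4 fell at 10 µg and 24 h. In either direction 5.95%, 61.8% and 70.3% of all genes were called in these comparisons. Srebf1, the gene of SREBP1, rose by 0.31 ± 0.06 (adjusted p = 0.000107) at 1 µg and was at 0.09 ± 0.06 (adjusted p = 0.216) at 10 µg. Scd1, which makes monounsaturated fatty acids, had log2 changes at 24 h of 1.51 ± 0.07 (adjusted p = 1.09e-14) and 1.35 ± 0.07 (adjusted p = 1.55e-14). The branch of isoprenoid and prenylation genes had 11, with 1 rise and 2 falls at 1 µg and 24 h, and 2 rises and 4 falls at 10 µg and 24 h, shares below the 61.8% and 70.3% of all genes called. Acetyl-CoA supply had 4, with 1 rise and 1 fall at 1 µg and 24 h and 1 rise and 3 falls at 10 µg, beside the same 61.8% and 70.3% of all genes. Neither of these lists had a call at 6 h.

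Other genes of sterol handling had 14 tested, with 1 rise at 10 µg and 6 h, 3 rises and 4 falls at 1 µg and 24 h, and 6 rises and 7 falls at 10 µg and 24 h. Of all genes, 5.95%, 61.8% and 70.3% were called in these comparisons. Gramd1b, which moves cholesterol from the plasma membrane, rose by 0.18 ± 0.05 (adjusted p = 0.0221) at 10 µg and 6 h, by 0.59 ± 0.05 (adjusted p = 6.38e-11) at 1 µg and 24 h and by 0.84 ± 0.05 (adjusted p = 2.37e-14) at 10 µg and 24 h. Tmem97, which binds NPC1, had log2 changes at 24 h of -0.85 ± 0.05 (adjusted p = 1.62e-12) and -0.95 ± 0.06 (adjusted p = 6.45e-14). Vldlr had no read in any group and was not tested. These lists were chosen with earlier results of these data in view, and nothing is read from their counts beyond the values given.

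Ratios of counts of gene pairs, chosen after their values were seen and given with no test, are free of the scaling between libraries. The Insig2 to Insig1 ratio was 0.202 ± 0.0090 (SD, n = 3) in untreated cells, 0.204 ± 0.0022 at 1 µg and 6 h and 0.172 ± 0.012 at 10 µg and 6 h. At 24 h it was 0.299 ± 0.045 at 1 µg and 0.339 ± 0.017 at 10 µg. The Npc1 to Stard4 ratio was 1.15 ± 0.029 in untreated cells, 1.37 ± 0.14 at 1 µg and 24 h and 2.72 ± 0.25 at 10 µg and 24 h. The Idi1 to Fdps ratio went from 2.56 ± 0.076 in untreated cells to 1.61 ± 0.16 and 1.31 ± 0.059 at 24 h. In the plot of these ratios the 10 µg 24 h libraries lie apart from the untreated ones in each pair.

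**Figure D5:**
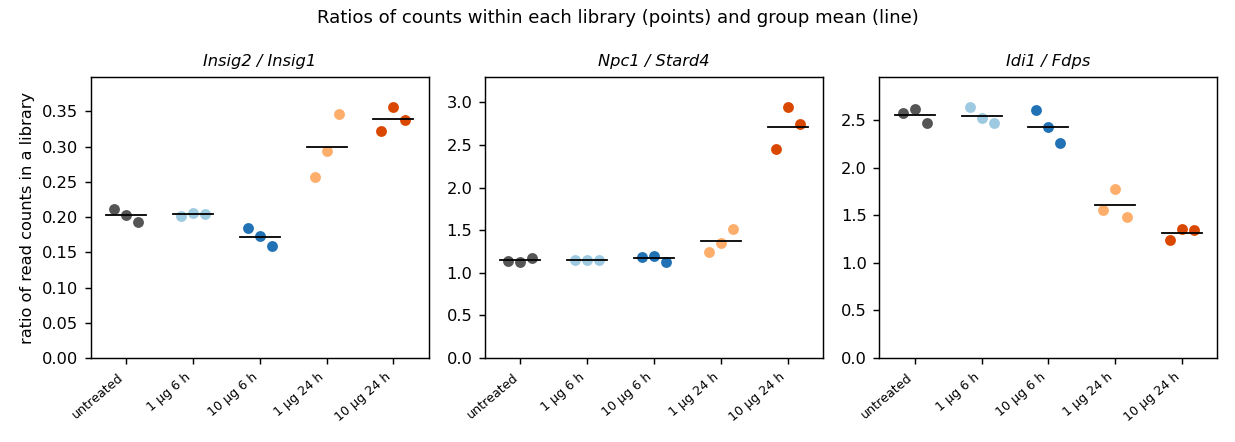
Ratios of read counts within each library (points) and group means (lines) for Insig2 over Insig1, Npc1 over Stard4 and Idi1 over Fdps, by group; each vertical axis starts at 0. Insig2 over Insig1 is 0.202 on average in untreated cells and 0.339 at 10 µg and 24 h.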

How the data were processed

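RNA was purified from RAW264.7 cells and libraries made with a stranded mRNA kit, per the labels' protocols. The authors deposited raw read counts per gene, and the submitters' processing notes name the build GRCm39. For the aligner, the counter, the annotation and the strand setting, nothing is given in the sources used here. Counts were tested as deposited. filterByExpr kept 12401 of 25639 genes, which hold 99.97% of the counts, and libraries were scaled by TMM. edgeR 4.0.16 (R 4.3.3) fitted a robust quasi-likelihood model to the 15 libraries with a mean for each of 5 groups (10 residual degrees of freedom), and 9 comparisons were tested two-sided, with Benjamini-Hochberg adjustment over all genes tested and a threshold of 0.05. The scripts were tested on simulated data. SE is the size of the log2 change divided by the square root of F, and levels are CPM on TMM-adjusted library sizes. Alternatives were RLE size factors, library totals alone, no filter, a replicate block, DESeq2 1.42.0, only the groups compared, and leaving out each replicate. "The call ended" means an adjusted p above the threshold under the settings named. The 28 genes and all lists were chosen with earlier results of these data known. Values in every library are given for the 14 genes with the smallest adjusted p in any comparison, and for Srebf2, Scap, Insig1 and Insig2 whatever they showed. Of the other lists, up to 2 genes with the smallest p against untreated cells could be named, besides Srebf1, Ch25h, Abca1 and Abcg1. Counts were 19085148 to 22434642 per library, and their number limits the precision of low genes.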

Additional observations from a re-analysis of the deposited data

Results flagged for a closer look

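For 9 of the 28 genes the effect of the amount of LCCL differed between 6 h and 24 h, by the interaction term of edgeR's quasi-likelihood test. The values are the 10 µg minus 1 µg log2 difference at 24 h less that at 6 h. Negative values were those of Acat2 (-0.81 ± 0.15), Pmvk (-0.48 ± 0.15), Idi1 (-0.46 ± 0.09), Stard4 (-0.43 ± 0.07), Cyp51 (-0.36 ± 0.08), Hsd17b7 (-0.35 ± 0.08) and Fdps (-0.24 ± 0.07). Positive values were those of Npc1 (0.53 ± 0.08) and Npc2 (0.22 ± 0.07). The adjusted p of Pmvk missed the threshold at 0.0538 when only the groups compared were fitted, 0.0609 leaving out 1 µg 6 h replicate 1, 0.0663 leaving out 1 µg 6 h replicate 2, 0.0622 leaving out 1 µg 24 h replicate 2, 0.0728 leaving out 10 µg 6 h replicate 3, 0.055 leaving out 10 µg 24 h replicate 1, 0.0648 leaving out 10 µg 24 h replicate 2 and 0.0551 leaving out 10 µg 24 h replicate 3 (range over all alternatives 4.14e-05 to 0.0728). That of Fdps missed it at 0.0563 leaving out 1 µg 6 h replicate 1, 0.06 leaving out 1 µg 6 h replicate 2, 0.0556 leaving out 1 µg 24 h replicate 2, 0.0921 leaving out 10 µg 6 h replicate 3 and 0.0515 leaving out 10 µg 24 h replicate 3 (range over all alternatives 0.0112 to 0.0921), and that of Npc2 at 0.0737 leaving out 1 µg 6 h replicate 3, 0.0694 leaving out 10 µg 6 h replicate 1, 0.055 leaving out 10 µg 6 h replicate 2 and 0.0623 leaving out 10 µg 24 h replicate 3 (range over all alternatives 0.00454 to 0.0737).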

How the results depend on the processing

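Of 3192 combinations of gene, comparison and setting, 0 reversed a call, 115 ended a call and 61 gained one. Only calls made in the results above could end, so 115 is not to be read as a share of 3192. Uncalled genes of the 28 that gained a call under some alternative numbered 3 at 10 µg and 6 h. There were 8 at 1 µg and 24 h and 2 at 10 µg and 24 h. For the amounts they numbered 10 at 6 h and 5 at 24 h, and for the interaction 7. For 24 h against 6 h they numbered 5 at 1 µg and 2 at 10 µg. The same counts over all genes are not given here. With 10 µg against 1 µg at 6 h, 2 of the 28 genes were called (all genes: 291). When only the groups compared were fitted, 12 were called (all genes: 1044). Without a filter on low counts 4 were called, where the count over all genes is not given here. At 24 h this comparison called 11 (all genes: 4383), and 7 when only its groups were fitted, where the count over all genes is not given here. At 10 µg and 6 h against untreated, 738 genes were called in all and 1487 when only its groups were fitted. Without a filter, 1 gene in all was called at 1 µg and 6 h. Leaving out each replicate in turn gave 4 to 9 of the 28 genes at 10 µg and 6 h (390 to 469 of all genes). For the amounts it gave 0 to 3 at 6 h (111 to 163 of all genes) and 7 to 12 at 24 h (3581 to 4458). For the interaction it gave 6 to 13 (1764 to 2723 of all genes). Scaling by library totals alone moved the summed CPM of the 28 genes from 3310 to 3228 in untreated cells, from 3391 to 3306 and 3666 to 3547 at 6 h (1 µg and 10 µg), and from 3029 to 3170 and 3068 to 3182 at 24 h. Searching the core TCACNCCAC instead of the full sterol regulatory element moved the promoter count from 0 to 1.

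Same-numbered libraries of different groups were at most weakly alike: 0 of 30 pairs had a correlation of deviations over 0.1 (range -0.08 to 0.10). Even so, 10 of 15 libraries correlated best with their own number, and whether the numbers mark a pairing was not tested. With the replicate block, 10 of the 28 genes were called for the interaction instead of 9, 12 instead of 11 for the amounts at 24 h, and 16 instead of 17 for 24 h against 6 h at 1 µg. Counts over all genes with the block are not given here, so these shifts are not read as particular to the 28 genes. The number of reads limits the precision for low genes such as Tm7sf2, at 8.45 ± 0.876 CPM in untreated cells.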

Other observations

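Soat1, which esterifies cholesterol for storage, falls outside the rule for named genes and was chosen after its values were seen. It was at 0.01 ± 0.05 (adjusted p = 0.938) at 1 µg and 24 h and at 0.58 ± 0.05 (adjusted p = 2.62e-10) at 10 µg and 24 h, and its interaction was 0.55 ± 0.07 (adjusted p = 1.20e-05) by edgeR's quasi-likelihood test. Rnf139 shares exon sequence on the same strand with Gm49356, which had 0 to 3 reads in every library except 3 at 24 h, where it had 117, 275 and 298.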
